A study of Saccharomyces cerevisiae with 37 samples.

Results

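The genes described here are nuclear genes of the budding yeast respiratory chain and ATP synthase: 34 genes of the 6464 in the deposited count table, taken from it by systematic name. They comprise 4 genes of complex II (succinate dehydrogenase), 9 of complex III (cytochrome bc1), CYC1 (the main isoform of cytochrome c), 8 of complex IV (cytochrome c oxidase) and 12 of ATP synthase. Further subunits, COX26 of complex IV and ATP19 and TIM11 of ATP synthase, are not among the 34 and are counted with the related genes. Of the 34, 30 passed the filter on low counts that left 4995 genes for testing. The libraries are 3'-end RNA-seq (Lexogen QuantSeq) of Saccharomyces cerevisiae, labelled haploid, mating type a, of the BY4741 background. The array strain, 25xGFA1 (BMY3661), carries a 25x array of GFA1, the glucosamine-6-phosphate synthase gene, behind the copper-responsive CUP1 promoter, and WT is BMY1051. Per the growth note, cultures of both strains grew in the glucose medium YPD, were washed, and spent about 2 h in copper-free minimal medium before copper sulfate was added. Samples were taken before copper (0 min), then every 5 min until 30 min, and again at 45 and 60 min, with 2 libraries per strain and time and 3 for WT at 0 min, 37 in all. The notes in the labels give the copper dose once in micromolar and once in millimolar, so it is not stated here. Since all samples after 0 min had copper, its effect and that of time since the medium change cannot be told apart. The labels do not say whether the array libraries come from more than 1 isolate, and p-values measure the spread between these libraries. A replicate number marks a culture, per the growth note, so after copper each strain is represented by 2 cultures sampled repeatedly. The main fit treats libraries of the same culture at different times as independent. Its p-values between the strains are therefore not a test over independent cultures.

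In the inner mitochondrial membrane, complex II and the NADH dehydrogenases reduce ubiquinone, complex III passes its electrons to cytochrome c, and complex IV passes them on to oxygen. Complexes III and IV pump protons, and ATP synthase uses the resulting gradient to make ATP. Yeast growing on glucose ferments and keeps many of these genes repressed. When repression is relieved, the Hap2/3/4/5 complex, whose Hap4 subunit carries the activation function, binds CCAAT boxes upstream of many of them, and Hap1 acts on some in response to haem.

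The CCAAT box was looked for upstream of each member. The window 400 to 151 bases before the annotated start codon was searched for CCAAT on either strand (ATTGG when it lies on the other strand), in RefSeq build R64. At least 1 match was present in 29 of 34 members (85.3%), against 2327 of 6001 protein-coding genes (38.8%). By complex, the windows with a match were 12 of 12 for ATP synthase, 8 of 9 for complex III, 6 of 8 for complex IV and 3 of 4 for complex II, and the CYC1 window had none. The following 4 windows are shown because their genes differed between the strains after copper. Capitals mark each match, and the CYT1 window holds none. They lie at chrXV:447039-447288 (CYT1), chrXVI:918981-919230 (QCR2), chrVIII:209305-209554 (COX6) and chrII:36653-36902 (ATP1), all on the plus strand. In the QCR2 window 61 bases, and in the COX6 window 80 bases, lie inside another annotated gene. Among the windows not shown this ran from 0 to 250 bases, with all of the ATP2 window, 158 bases for QCR7, 150 for QCR6 and 147 for COX12. The counts of matches include these windows.
CYT1: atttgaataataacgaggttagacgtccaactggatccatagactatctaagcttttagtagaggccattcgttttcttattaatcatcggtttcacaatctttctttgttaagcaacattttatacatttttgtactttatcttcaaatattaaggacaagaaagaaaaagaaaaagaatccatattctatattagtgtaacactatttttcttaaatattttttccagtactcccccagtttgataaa
QCR2: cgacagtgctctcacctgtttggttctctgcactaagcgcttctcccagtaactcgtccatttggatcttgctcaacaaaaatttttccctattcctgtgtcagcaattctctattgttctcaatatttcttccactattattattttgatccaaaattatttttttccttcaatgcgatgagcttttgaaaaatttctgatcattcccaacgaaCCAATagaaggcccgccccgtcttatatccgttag
COX6: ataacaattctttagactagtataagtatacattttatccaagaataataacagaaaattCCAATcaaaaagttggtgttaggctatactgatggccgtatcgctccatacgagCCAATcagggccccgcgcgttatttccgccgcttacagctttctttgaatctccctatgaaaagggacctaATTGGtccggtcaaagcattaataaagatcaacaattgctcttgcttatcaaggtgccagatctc
ATP1: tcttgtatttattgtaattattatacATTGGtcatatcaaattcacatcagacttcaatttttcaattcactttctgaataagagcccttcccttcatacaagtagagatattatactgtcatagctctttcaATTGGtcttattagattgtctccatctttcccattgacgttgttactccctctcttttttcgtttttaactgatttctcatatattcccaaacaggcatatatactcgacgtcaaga
A match describes these letters only, and binding was not measured. A match was present in 7 of the 9 members called between the strains after copper (77.8%) and in 22 of the 25 others (88%). The others include SDH1, SDH2, RIP1 and COX4, which failed the filter on low counts and were not tested.

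Libraries held 305028 to 887971 gene counts, so 3 counts correspond to 3.17 to 7.98 CPM (the deposited counts as a TMM-scaled share of each library). WT 0 min replicate 1 stood apart, with the fewest gene counts and 50.6% of its listed reads outside annotated genes, where the other 36 libraries had 34.8% to 46.4%. In it, 13 of 30 tested members (43.3%) lay more than 1 log2 unit below the mean of WT 0 min replicates 2 and 3, against 24.1% of all genes tested, so the main results that rest on WT at 0 min are given with and without it. GFA1 itself was at 1800 to 21400 CPM in 25xGFA1 libraries and at 32.8 to 343 CPM in WT libraries. The summed CPM of 6 a-cell marker genes was 1310 to 2830 in 25xGFA1 and 165 to 486 in WT, and that of 7 haploid marker genes was 641 to 870 in 25xGFA1 and 108 to 197 in WT. All 6 and all 7 were called higher in 25xGFA1 after copper, although the labels give both strains as mating type a haploids, and none of them was at 0 throughout. The sum of 4 alpha-cell markers was 17.5 to 48.8 CPM in 25xGFA1 and 8.46 to 40.5 CPM in WT. The part of that difference in the strain results below was not tested.

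After copper, the members ran lower in the array strain. All 30 tested members had a negative log2 fold change averaged over the 8 times from 5 to 60 min (25xGFA1 over WT), with a median of -0.36, where the median over all 4995 genes was 0.00. Of the members, 9 fell at an adjusted p under 0.05 and none rose (edgeR quasi-likelihood test, Benjamini-Hochberg adjusted over all genes tested). Over all genes 23.9% were called, 599 higher and 595 lower. The share of members called, 9 of 30, is not far above that background. The 16 libraries of each strain are time points of the same few cultures. The adjusted p-values for the strains, here and below, take them as independent libraries. The summed CPM of the 34 members was 2617 to 3865 (median 3174) in the 16 25xGFA1 libraries after copper and 3068 to 4735 (median 3934) in the 16 WT libraries, so the ranges overlap while the medians are apart. Since CPM are shares of each library's counts, fewer cells expressing a gene and less transcript per cell cannot be told apart. With DESeq2 size factors in place of TMM, all 30 differences were negative as well.

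**Figure D1:**
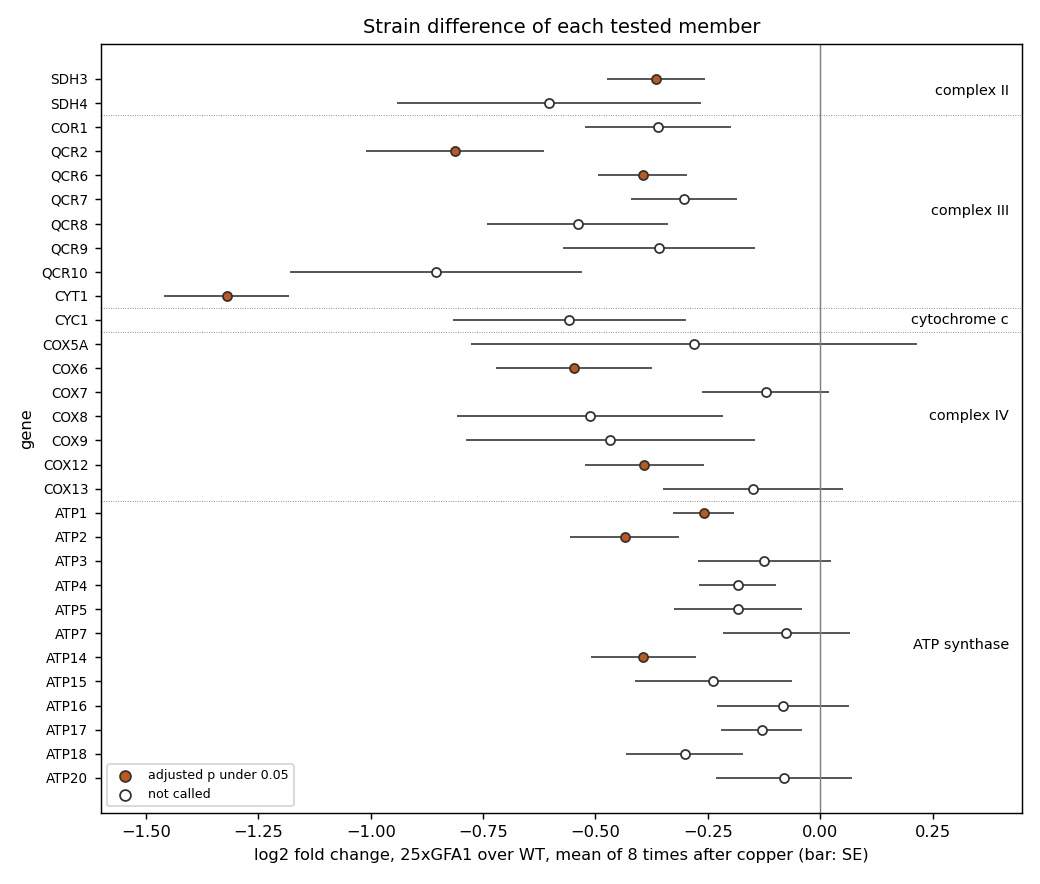
Log2 fold change of each tested member, 25xGFA1 over WT, averaged over the 8 times after copper (x axis; bars are 1 standard error; edgeR), with genes grouped by complex down the page. Every point lies left of 0, filled points are the 9 members called, and CYT1 at -1.32 lies farthest left.

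Among the members, complex III held the largest strain difference. CYT1 (YOR065W, chrXV:447439-448368), cytochrome c1, the haem subunit that hands electrons to cytochrome c, had 12.2 to 47.2 CPM (median 24.3) in 25xGFA1 libraries after copper and 37.8 to 104 CPM (median 63.1) in WT libraries. At each of the 8 times both 25xGFA1 libraries lay below both WT libraries, although the ranges over all times overlap. CYT1 fell 2.49-fold (log2 fold change -1.32, SE 0.139, adjusted p = 4.91e-08), the smallest adjusted p among the members. Its 0 min libraries stood the same way, at 11.6 and 20.8 CPM in 25xGFA1 and 39.9, 36.7 and 42.3 CPM in WT. There the log2 fold change was -1.30 (SE 0.404), with an adjusted p = 0.0662 in the full fit, 0.076 on leaving out WT 0 min replicate 1 and 0.0343 on leaving out replicate 2 of WT at 0 min. The difference between strains in the CYT1 change from 0 min to 15-60 min was -0.09 log2 units (SE 0.474, adjusted p = 0.953; adjusted p = 0.959 without WT 0 min replicate 1).

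QCR2 (YPR191W, chrXVI:919381-920487), the core protein 2 of complex III, had 2.25 to 30.6 CPM (median 15.5) in 25xGFA1 after copper and 7.96 to 62.5 CPM (median 28.3) in WT. It fell by 0.81 log2 units (SE 0.198, adjusted p = 0.00339), with both 25xGFA1 libraries below both WT libraries at 3 of 8 times. QCR6 (YFR033C), the acidic hinge protein of the complex, had 99 to 223 CPM (median 160.5) in 25xGFA1 and 160.3 to 265 CPM (median 202) in WT, lower by 0.40 log2 units (-0.395, SE 0.0992, adjusted p = 0.0043) and separated at 6 of 8 times. The other tested complex III members, COR1, QCR7, QCR8, QCR9 and QCR10, had log2 fold changes of -0.86 to -0.30 and were not called.

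Complex IV and complex II contributed 3 of the calls. COX6 (YHR051W), subunit VI of cytochrome c oxidase, had 12.1 to 62.8 CPM (median 28.1) in 25xGFA1 and 17.9 to 65.2 CPM (median 40.8) in WT, a log2 fold change of -0.55 (SE 0.174, adjusted p = 0.0227). COX12 (YLR038C), subunit VIb, had 57.1 to 119 CPM (median 92.7) in 25xGFA1 and 73.5 to 149 CPM (median 121) in WT, a log2 fold change of -0.39 (SE 0.132, adjusted p = 0.0314). These are the less secure calls of the 9: when each of the 37 libraries was left out in turn, COX6 missed the threshold in 4 fits (adjusted p up to 0.0776) and COX12 in 15 (up to 0.0839), and the other 7 kept it in all. SDH3 (YKL141W), the cytochrome b subunit that anchors succinate dehydrogenase in the membrane, had 29.9 to 69.6 CPM (median 50.1) in 25xGFA1 and 45.8 to 91.6 CPM (median 63.7) in WT, a log2 fold change of -0.37 (SE 0.109, adjusted p = 0.0149). SDH4, the other membrane anchor, had a log2 fold change of -0.60 (SE 0.338, adjusted p = 0.209), and CYC1 one of -0.56 (SE 0.26, adjusted p = 0.126).

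In ATP synthase the differences were smaller and 3 of 12 members were called, 2 of them in the catalytic F1 head. ATP1 (YBL099W), the alpha subunit, had 432 to 629 CPM (median 537) in 25xGFA1 and 509 to 742 CPM (median 652) in WT, a fall of 1.2-fold (log2 fold change -0.26, SE 0.0675, adjusted p = 0.00583). ATP2 (YJR121W), the catalytic beta subunit, had 97.2 to 261 CPM (median 154) in 25xGFA1 and 137 to 321 CPM (median 205) in WT (log2 fold change -0.44, SE 0.121, adjusted p = 0.00947). Both had lower 25xGFA1 means at 8 of 8 times and full separation of the libraries at 5. ATP14 (YLR295C), subunit h of the stator stalk, had 33.5 to 65.1 CPM (median 46.1) in 25xGFA1 and 45.3 to 95.4 CPM (median 62.1) in WT (log2 fold change -0.39, SE 0.117, adjusted p = 0.0149). The remaining 9, which include the central stalk subunits ATP3, ATP15 and ATP16, ran from -0.30 to -0.08 log2 units and were not called.

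Every complex had a negative median. The median log2 fold change (25xGFA1 over WT) was -0.48 over the 2 tested members of complex II, -0.47 over 8 of complex III, -0.39 over 7 of complex IV and -0.18 over 12 of ATP synthase. A difference between complexes was not tested. Over the members, both 25xGFA1 libraries lay below both WT libraries at a median of 3 of the 8 times, against 1 over all genes tested. Adjustment for the share of reads outside genes, leaving out WT 0 min replicate 1, and restricting the fit to the libraries after copper gave 16, 15 and 15 called members, all lower, and the same 9 were among them each time. These fits compare the same libraries after copper, in which the strains had similar shares, so the fold changes could move only little. The fit without WT 0 min replicate 1 called 1713 genes in all, against 1194 in the full fit.

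Before copper the picture was mixed. At 0 min, 0 of 30 members were called between the strains (5 had an unadjusted p under 0.05), where 3.44% of all genes were called, and 20 of the 30 log2 fold changes were positive, with a median of 0.15. The members with the smallest p were CYT1, ATP4, a stator subunit, at -0.70 (SE 0.222, adjusted p = 0.0708), and QCR6 at -0.78 (SE 0.254, adjusted p = 0.0771). All 3 were lower in 25xGFA1. QCR6 had 129 and 200.5 CPM in 25xGFA1 and 404, 199.6 and 256 CPM in WT, so the groups overlap by 1 library. Without WT 0 min replicate 1 the member median was 0.02, 0 members were called, and ATP4 stood at -0.45 and QCR6 at -0.48 (adjusted p = 0.18 and 0.205). Without WT 0 min replicate 2 the member median was 0.37 and 7 were called (CYT1, QCR6, QCR7 and ATP4 lower, and ATP3, ATP5 and COX13 higher). That fit called 882 genes in all, against 172 in the full fit. With the culture as a block 2 members were called, QCR6 and QCR7, both lower, among 432 genes in all. At 5 min in place of 0 min the member median was -0.30.

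**Figure D2:**
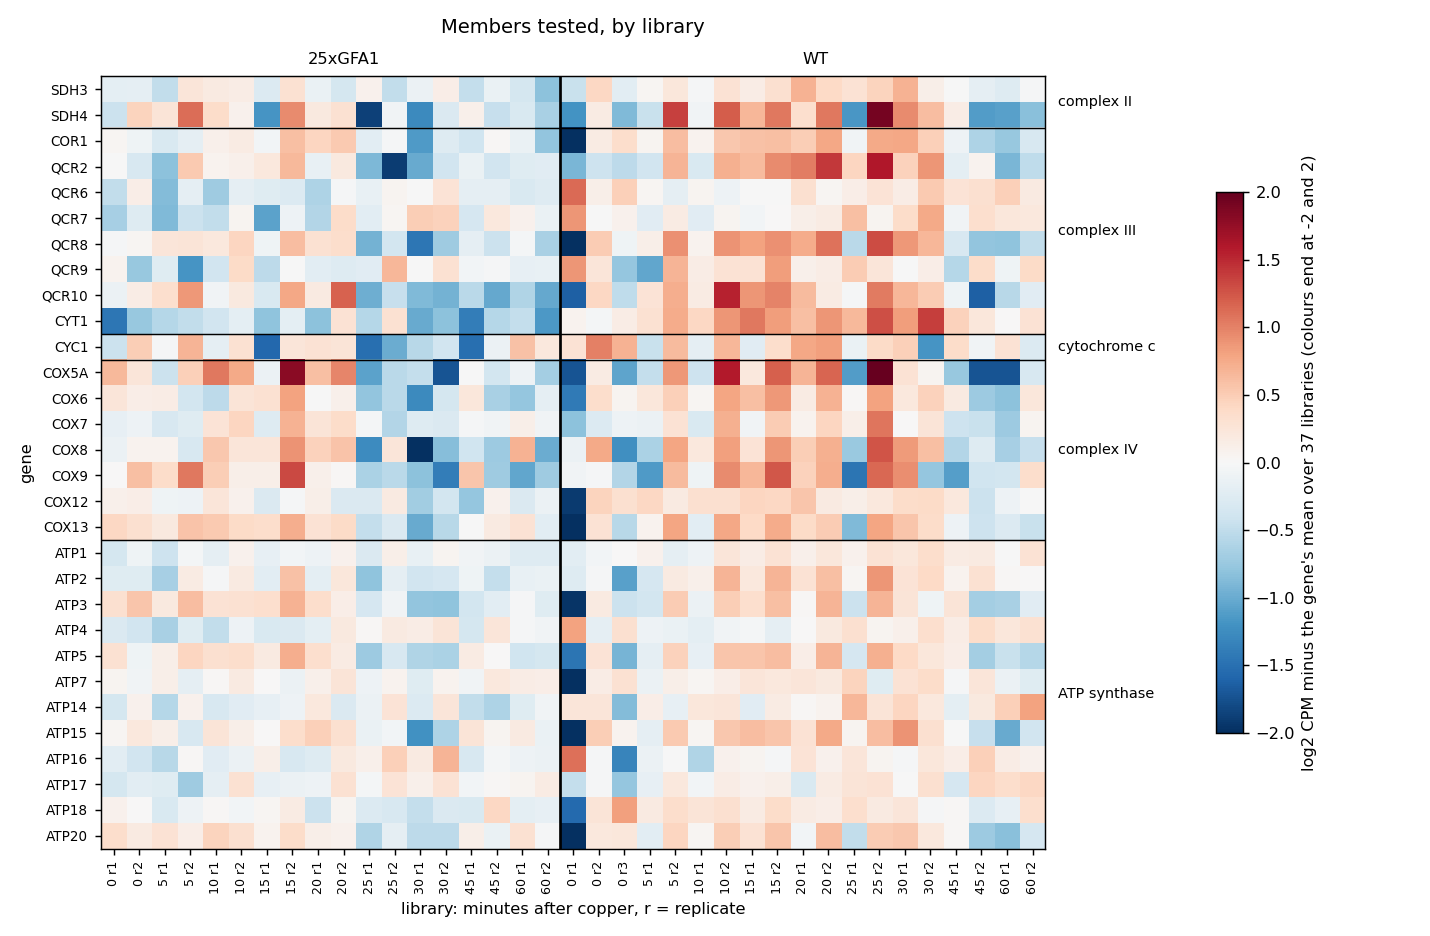
Log2 CPM of each of the 30 tested members minus that gene's mean over all 37 libraries, with 25xGFA1 libraries left of the black line and WT libraries right of it, in order of time and replicate (r), and genes grouped by complex. WT 15 to 30 min libraries are mostly red, 25xGFA1 25 and 30 min libraries mostly blue, and the WT 0 min replicate 1 column is blue for 22 members, 14 of them more than 1 log2 unit below their mean, and red for 8.

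In WT the members were higher 15-20 min after copper than at 0 min. Of 30, 25 had a positive log2 fold change and the median was 0.66, where the median over all genes was -0.01. Only 4 rose at the threshold and none fell (14 had an unadjusted p under 0.05), against 12.5% of all genes called, 244 higher and 379 lower. The share of members called, 4 of 30, is thus near that background. In the same comparison 2 of the 6 a-cell markers were called higher (MFA2 at 1.17 and BAR1 at 0.83), with 5 positive and 1 negative in all. Of the 7 haploid markers 6 were negative and 1 positive (median -0.28), with 0 called. The part of the markers in the result was not tested. The medians were 0.98 for complex II, 0.79 for complex III, 0.79 for complex IV and 0.42 for ATP synthase, and CYC1 (YJR048W) stood at -0.34 (SE 0.441, adjusted p = 0.649), and at -0.47 (adjusted p = 0.504) without WT 0 min replicate 1.

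QCR2 had 30.2, 38.5, 40.6 and 54.4 CPM in WT at 15-20 min and 7.97, 12.8 and 11.6 CPM at 0 min. The groups do not overlap, and the rise was 3.55-fold (log2 fold change 1.83, SE 0.392, adjusted p = 0.00294). It kept its call in all 37 fits that left out 1 library (adjusted p of 0.0174 or less). The call was lost in a fit of only the libraries compared (1.81, adjusted p = 0.223, with 0 genes called in all) and with 5 min as baseline (0.87, adjusted p = 0.717). CYT1 had 82.2, 70.3, 59.2 and 72 CPM at 15-20 min, against 39.9, 36.7 and 42.3 CPM at 0 min, again without overlap (log2 fold change 0.83, SE 0.268, adjusted p = 0.043), but lost the call in 16 of 37 such fits.

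ATP2 had 199.6, 279, 212 and 263 CPM in WT at 15-20 min and 144, 169 and 79.3 CPM at 0 min (log2 fold change 0.89, SE 0.265, adjusted p = 0.0278), also without overlap, and lost the call in 3 of the 37 fits (WT 0 min replicate 3 or replicate 2 of WT at 15 or 20 min left out), with a log2 fold change of 0.60 or more and an adjusted p of up to 0.137. ATP5 (YDR298C), the oligomycin-sensitivity subunit that links the F1 head to the stator, had 119, 124, 88 and 130 CPM at 15-20 min, against 26.6, 97.4 and 40.2 CPM at 0 min. Its groups overlap through WT 0 min replicate 2 (log2 fold change 1.03, SE 0.305, adjusted p = 0.0275), and the call was lost in 5 of the 37 fits, those without WT 0 min replicate 1 or 3, either 15 min WT library or replicate 2 of WT at 20 min (adjusted p up to 0.123). Without WT 0 min replicate 1, 3 members were called (QCR2 at 1.72, ATP2 at 0.98 and CYT1 at 0.83) and the member median was 0.45. The count of 4 became 13 (11 higher and 2 lower) on leaving out WT 0 min replicate 2, with 1174 genes called in all, against 623. It was 2 when WT 0 min replicate 3 was dropped and 2 when WT 15 min replicate 1 was, and 1 when either WT 15 min replicate 2 or replicate 2 of WT at 20 min was dropped. With the culture as a block 7 were called, 6 higher (COR1, QCR2, QCR8, CYT1, COX7 and ATP2) and QCR6 lower. Against 5 min in place of 0 min, 28 of 30 members were still higher, with a median of 0.25, and 0 were called.

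**Figure D3:**
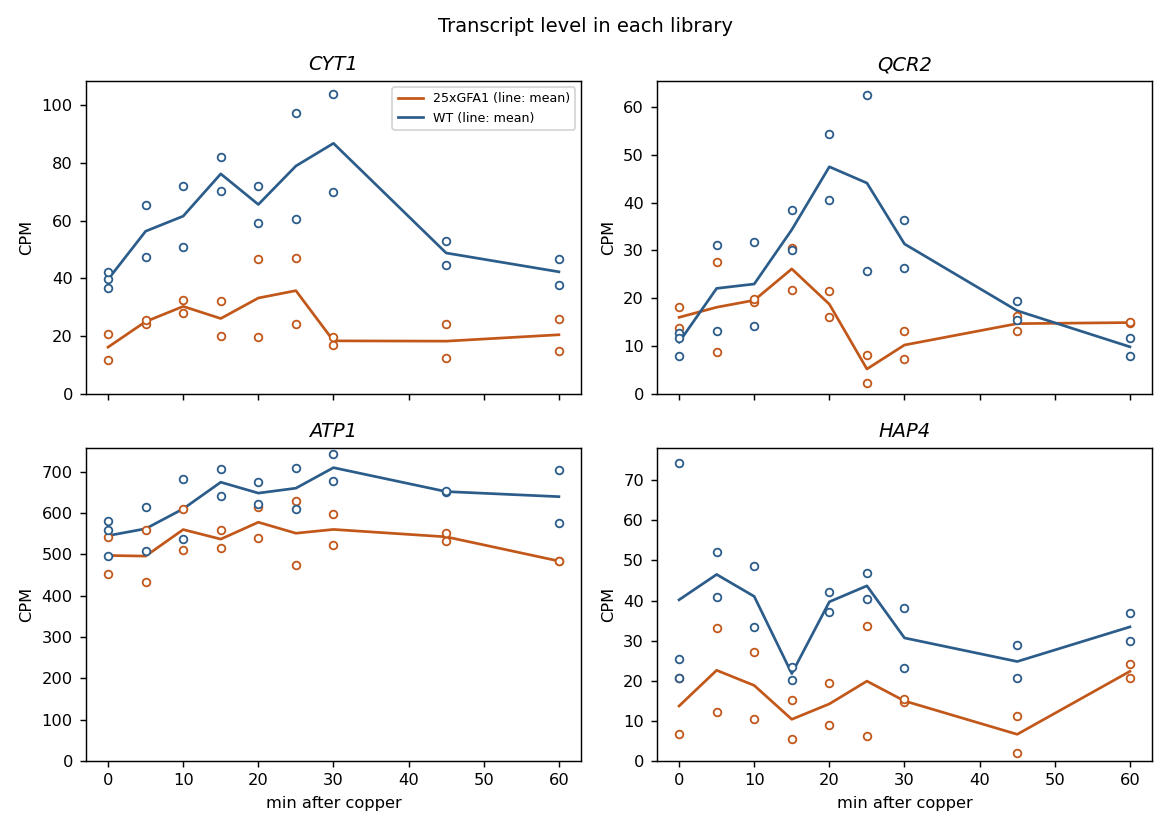
CPM of CYT1, QCR2, ATP1 and the regulator HAP4 in every library (points) against minutes after copper, with the line through the mean of each group, for 25xGFA1 (orange) and WT (blue). CYT1 points of 25xGFA1 lie below those of WT at every time; QCR2 in WT is highest at 20 and 25 min and back in the range of 25xGFA1 by 45 min.

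From 15-20 to 25-30 min nothing was called among the members in WT (0 of 30, with 0 at an unadjusted p under 0.05, and a median of -0.05), and 0.04% of all genes were called. By 45-60 min WT members were lower than at 25-30 min. The median was -0.59, 25 of 30 were negative, 4 fell and none rose (13 had an unadjusted p under 0.05), against 10.4% of all genes called, 315 higher and 205 lower. The share of members called, 4 of 30, is near that background. All 4 encode complex III subunits, but other fits, given below, also called members of complexes II and IV and of ATP synthase. The complex III median was -0.93 over 8 tested members, with -1.22 for complex II, -0.83 for complex IV, -0.23 for ATP synthase and 0.10 for CYC1. Outside the members, TIM11, a further subunit of ATP synthase, was called lower as well (log2 fold change -0.75, SE 0.183, adjusted p = 0.00762).

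QCR2 had 15.4, 19.3, 7.96 and 11.7 CPM in WT at 45-60 min and 25.8, 62.5, 26.4 and 36.3 CPM at 25-30 min, a fall of 2.82-fold without overlap (log2 fold change -1.50, SE 0.366, adjusted p = 0.00731). CYT1 had 53.1, 44.5, 37.8 and 46.7 CPM at 45-60 min, against 60.8, 97.2, 69.8 and 104 CPM at 25-30 min, also without overlap (log2 fold change -0.86, SE 0.243, adjusted p = 0.0206). COR1 (YBL045C), the core protein 1 that pairs with Qcr2, had 68.5, 46.4, 41.8 and 58.4 CPM at 45-60 min, against 70, 127, 129 and 104 CPM at 25-30 min. The groups do not overlap, though the nearest libraries were 68.5 and 70 CPM (log2 fold change -0.99, SE 0.323, adjusted p = 0.0494), and the call was lost in 33 of 37 fits that left out 1 library.

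QCR8 (YJL166W), a small subunit of complex III, had 122, 87, 85.6 and 107 CPM in WT at 45-60 min and 103, 384, 279 and 242 CPM at 25-30 min. The groups overlap through WT 25 min replicate 1 (log2 fold change -1.33, SE 0.403, adjusted p = 0.033). The count of 4 depended on single libraries. On leaving out a 25 min WT library it was 10 (replicate 1) or 0 (replicate 2), and on leaving out a 30 min one it was 2 (replicate 1) or 1 (replicate 2). It was 1 on leaving out replicate 2 of WT at 45 min or replicate 1 at 60 min. On leaving out WT 0 min replicate 1 it was 9, with 976 genes called in all, against 520 in the full fit. The members added there were QCR10, SDH4, COX7, ATP15 and ATP20. With the culture as a block it was 9, all lower, and the members added were SDH4, COX5A, COX7, COX8 and ATP15. DESeq2 added SDH4 to the 4. SDH4 (YDR178W) had 18.8, 5.8, 5.97 and 7.79 CPM in WT at 45-60 min, against 5.52, 72.9, 35.7 and 27.7 CPM at 25-30 min, which overlap through WT 25 min replicate 1 (log2 fold change -1.90, SE 0.658, adjusted p = 0.065).

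By 45-60 min the WT members stood close to 0 min. Of 30, 0 were called (1 had an unadjusted p under 0.05), the median was -0.10, and 1.58% of all genes were called. Without WT 0 min replicate 1, 824 genes were called in all, against 79 in the full fit, and 5 members were called. COR1, ATP15 and ATP18 were lower, and ATP16 and ATP17 higher. Without WT 0 min replicate 2, 1 was called, ATP17, which was higher.

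**Figure D4:**
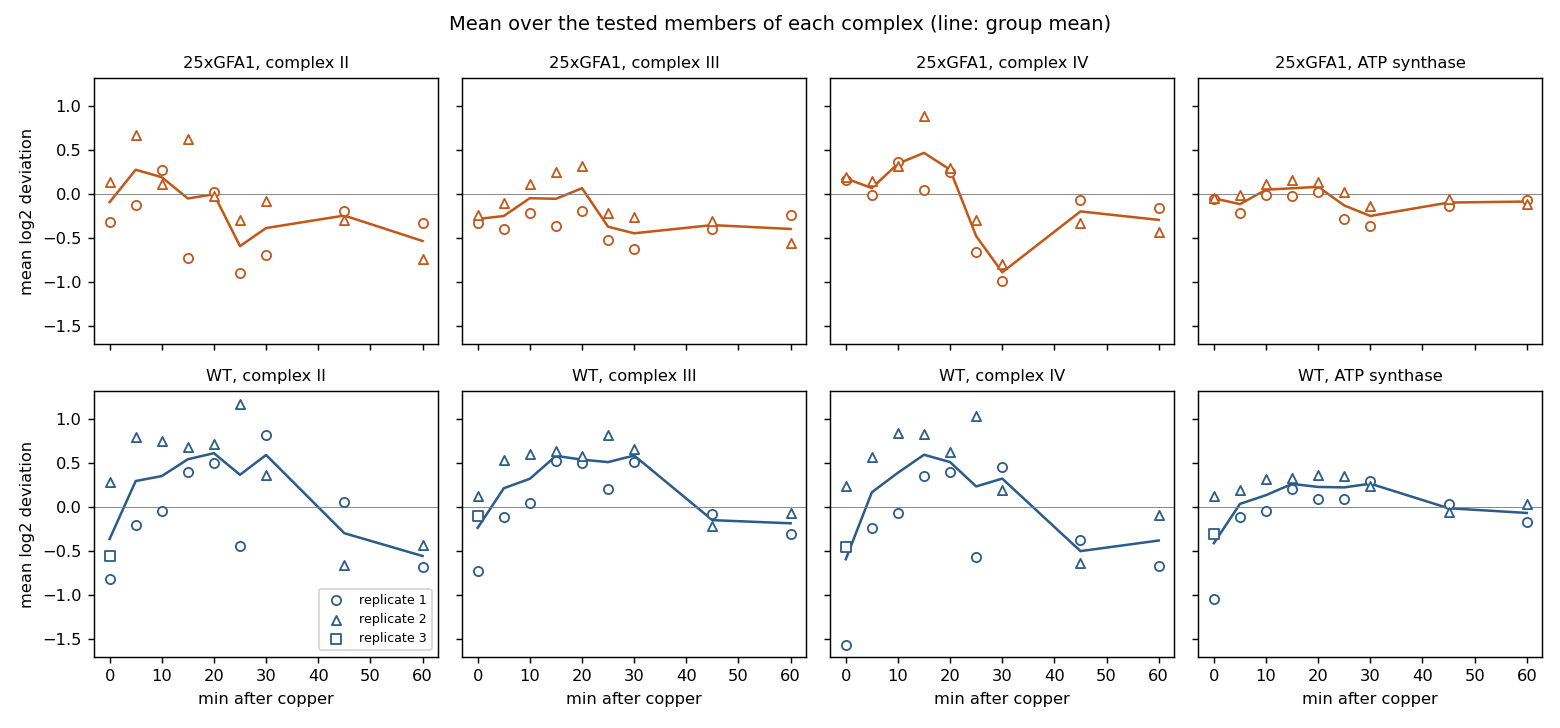
Mean log2 deviation (log2 CPM minus each gene's mean over 37 libraries, averaged over the tested members of a complex) against minutes after copper, with 25xGFA1 above and WT below, 1 column per complex. Symbols are libraries by replicate number and the line joins group means. In WT, the group means of complexes III and IV lie higher at 15 to 30 min than at 45 and 60 min, and ATP synthase varies less. For complex IV a single library goes against this: WT 25 min replicate 1 (-0.564) lies below WT 45 min replicate 1 (-0.365) and WT 60 min replicate 2 (-0.0847).

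In 25xGFA1 no change by 15-20 min passed the test. No member was called against 0 min (0 of 30, 1 with an unadjusted p under 0.05), 24 of 30 were positive with a median of 0.18, and 0.04% of all genes were called. QCR2 had 21.7, 30.6, 16.1 and 21.4 CPM at 15-20 min, against 18.1 and 13.8 CPM at 0 min, which overlap (log2 fold change 0.46, SE 0.46, adjusted p = 0.999). CYT1 had 19.9, 32.2, 19.6 and 46.8 CPM at 15-20 min, against 11.6 and 20.8 CPM at 0 min (log2 fold change 0.86, SE 0.407, adjusted p = 0.673), a fold change close to that in WT but with a wider spread.

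In 25xGFA1 the members stood lower at 25-30 min than at 15-20 min, but the difference passed the test only under some settings. The median was -0.63, 22 of 30 members were negative and 14 had an unadjusted p under 0.05, and 0 were called in the full fit, against 3.1% of all genes (31 higher and 124 lower). In the same step 3 of the 6 a-cell markers fell (MFA1 at -1.47, STE2 at -0.99 and AGA2 at -0.90), with 5 negative and 1 positive in all. Of the 7 haploid markers 4 were positive and 3 negative (median 0.20), with 0 called. The part of the markers in the result was not tested. The medians were -1.12 for complex IV, -0.59 for complex II, -0.50 for complex III and -0.21 for ATP synthase, and CYC1 stood at -1.17 (SE 0.636, adjusted p = 0.252). CYC1 had 2.03, 4.49, 7.28 and 8.74 CPM at 25-30 min, against 1.81, 15.3, 16.1 and 15.6 CPM at 15-20 min, which overlap through 1 library, 25xGFA1 15 min replicate 1. QCR2 had 8.1, 2.25, 7.28 and 13.1 CPM at 25-30 min, against 21.7, 30.6, 16.1 and 21.4 CPM at 15-20 min, without overlap (log2 fold change -1.55, SE 0.461, adjusted p = 0.057). COX6 had 18.2, 22.5, 12.1 and 26.2 CPM at 25-30 min, against 43.4, 62.8, 33.9 and 37 CPM at 15-20 min, without overlap (log2 fold change -1.12, SE 0.38, adjusted p = 0.0852). COX13, a small complex IV subunit picked here after its values were seen, had 87.4 to 146 CPM at 25-30 min, against 219 to 299 CPM at 15-20 min.

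Whether these differences passed the threshold depended on a library from another group. Without WT 0 min replicate 1, 12 members were called in 25xGFA1 at 25-30 min against 15-20 min, all lower: COR1, QCR2, QCR8 and QCR10 of complex III, COX5A, COX6, COX8 and COX13 of complex IV, and ATP3, ATP5, ATP15 and ATP20 of ATP synthase. Leaving out WT 0 min replicate 2 gave 2, WT 0 min replicate 3 gave 1, and either WT 25 min library gave 3. DESeq2 called 1, ATP5 (log2 fold change -0.98, adjusted p = 0.0474). With the culture as a block 9 were called, and in a fit of only the libraries compared 11 were. The fits that gave 12, 9 and 11 members called 1063, 487 and 1245 genes in all, against 155 in the full fit. In the full fit CYT1 and ATP1 had log2 fold changes of -0.20 (SE 0.32, adjusted p = 0.723) and 0.00 (SE 0.136, adjusted p = 0.991).

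At 45-60 min against 25-30 min in 25xGFA1, 0 of 30 members were called (0 with an unadjusted p under 0.05, median 0.25) and 0.601% of all genes were, and against 0 min 0 were called (0 with an unadjusted p under 0.05, median -0.23) and 0.18% of all genes were. Changes over longer spans of time were set against each other between the strains. For the change from 0 min to 15-60 min, 25xGFA1 minus WT, 0 of 30 members were called (4 with an unadjusted p under 0.05, median -0.47, 0.02% of all genes called), and for the change from 15-20 to 45-60 min 0 were called (0 with an unadjusted p under 0.05, median 0.29, 0% of all genes called, 261 with an unadjusted p under 0.05). Neither span matches the steps in which WT members were called, 15-20 min against 0 min and 45-60 min against 25-30 min. Whether those steps differed between the strains was not tested. DESeq2 also called 0 members in each comparison described here with 0 calls, except for the 1 named at 25-30 min. QCR2 had a difference in its change from 0 min of -1.50 log2 units (SE 0.581, adjusted p = 0.384), and of -1.39 (adjusted p = 0.41) on leaving out WT 0 min replicate 1, when the member median was -0.24 and 0 members were called. On leaving out WT 0 min replicate 2, 3 members were called for the change from 0 min to 15-60 min: ATP3 at -1.55, ATP5 at -1.57 and ATP4 at 0.75. In that fit 261 genes were called in all, against 1 in the full fit.

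The member levels moved with the share of reads outside annotated genes. In 25xGFA1 that share was 42.1% to 45.8% at 25-30 min and 35.2% to 41.5% at 15-20 min, and in WT it was 42.5% to 46.4% at 45-60 min and 36.4% to 42.1% at 25-30 min, so the lower member values in both strains came with a higher share. Over the 18 pairs of replicates 1 and 2, the library with the larger share had the lower value in a median of 12 pairs per member, against 9 over all genes tested. With the share as a covariate, an alternative chosen after the data were seen, its slope was called lower for 13 members and higher for 4 (QCR6, QCR7, ATP4 and ATP16) of 30, against 1109 lower and 1013 higher of 4995 genes. That fit includes WT 0 min replicate 1, which weighs heavily on the slopes. Replicates 1 and 2 of WT at 0 min differ by 13.4 percentage points in share, and the other pairs by at most 5.39. The covariate was not fitted without that library, so its part in the slopes was not tested.

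In the fit with the share covariate 0 members were called in WT at 45-60 min against 25-30 min (median -0.24). The same held in 25xGFA1 at 25-30 min against 15-20 min (median -0.08). In WT at 15-20 min against 0 min only QCR2 kept its call (log2 fold change 1.62, adjusted p = 0.0108), with a member median of 0.38. The medians at 45-60 min changed sign: to 0.24 in WT against 0 min, to -0.0303 against 25-30 min and 0.078 against 0 min in 25xGFA1, and to -0.0226 for the difference between strains in the change from 15-20 to 45-60 min. The groups after copper had similar shares, 34.8% to 45.8% in 25xGFA1 and 35.6% to 46.4% in WT. The covariate could therefore move the strain difference after copper only little, and its part in that difference was not tested by this fit. CYT1 stayed at -1.32 (adjusted p = 2.2e-08), and all 30 members had a negative log2 fold change. The slope for CYT1 itself was 0.00 log2 units per percentage point (adjusted p = 0.994).

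**Figure D5:**
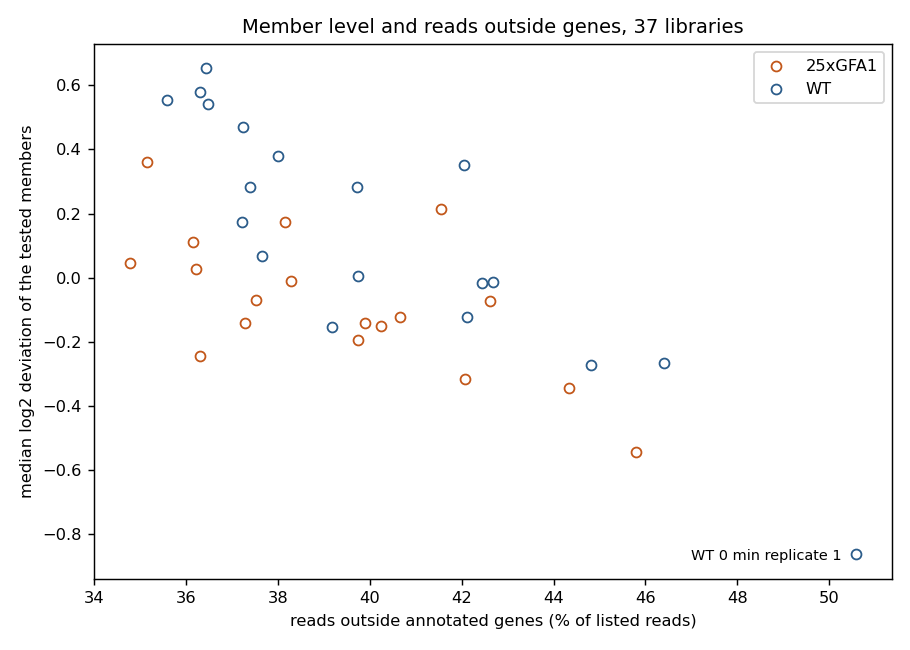
Median log2 deviation of the 30 tested members (y axis) against the share of listed reads outside annotated genes (x axis, %) in each of the 37 libraries, 25xGFA1 in orange and WT in blue. In both strains the libraries with the largest shares lie lowest, and WT 0 min replicate 1 is the point at the lower right.

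The 4 members that failed the filter had few reads: SDH1, the flavoprotein of complex II, 151 counts over all 37 libraries; SDH2, its iron-sulfur protein, 46; RIP1, the Rieske iron-sulfur protein of complex III, 43; and COX4 of complex IV, 109. Their CPM after copper were 0 to 12.3 in 25xGFA1 and 0 to 15.1 in WT for SDH1, and 0 to 7.79 in 25xGFA1 and 0 to 24.5 in WT for COX4. SDH2 ran from 0 to 5.09 in 25xGFA1 and from 1.55 to 8.39 in WT, and RIP1 from 0 to 9.18 in 25xGFA1 and from 0 to 8.39 in WT. In 25xGFA1 both libraries lay below both WT libraries at 5 of 8 times for SDH1, 4 for SDH2, 2 for RIP1 and 0 for COX4. In a fit with no filter on low counts the log2 fold change after copper was -0.78 (SE 0.383, adjusted p = 0.172) for SDH1, -1.21 (SE 0.561, adjusted p = 0.144) for SDH2 and -0.73 (SE 0.492, adjusted p = 0.349) for COX4, none called, and RIP1 gave no usable error. Levels were not compared between genes, because a 3'-end count depends on where the annotated gene ends.

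Related genes were set beside the members after copper, where 23.9% of all genes were called, 595 of 4995 lower. No list was tested against other genes. Of 4 tested Hap factors only HAP4 was called: it had 2.04 to 33.7 CPM (median 14.9) in 25xGFA1 after copper and 20.1 to 52.1 CPM (median 37.1) in WT, ranges that overlap (log2 fold change -1.16, SE 0.24, adjusted p = 0.000746). HAP1, HAP2 and HAP3 stood at 0.01, -0.53 and 0.06, none called. HAP4 at 0 min had 6.6 and 20.8 CPM in 25xGFA1 and 74.4, 20.8 and 25.4 CPM in WT (log2 fold change -1.40, SE 0.614, adjusted p = 0.178, and -0.78 with an adjusted p = 0.448 without WT 0 min replicate 1), and it did not change at the threshold over time in either strain.

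The isoform list holds isoforms, other electron donors and the further subunits COX26 of complex IV and ATP19 and TIM11 of ATP synthase. After copper 7 of its 9 tested genes were called lower in 25xGFA1 and none higher, with a median log2 fold change of -0.87. COX26 stood at -2.09 (SE 0.468, adjusted p = 0.00158). CYC7, the iso-2 form of cytochrome c, had a log2 fold change of -1.37 (SE 0.286, adjusted p = 0.000763), and COX5B, the hypoxic isoform of COX5A, one of -0.87 (SE 0.092, adjusted p = 4.91e-08). CYB2, the lactate dehydrogenase that feeds cytochrome c, was at -1.87, NDE1, the external NADH dehydrogenase, at -0.71, and DLD1, a D-lactate dehydrogenase, at -0.68. COX5B and DLD1 were called lower at 0 min as well (-0.93 and -0.73), as were MDH1 (-1.14) and STF1 (-1.26) of the lists that follow. On leaving out WT 0 min replicate 1, COX5B, DLD1 and MDH1 were still called (-0.96, -0.89 and -1.04) and STF1 was not (-0.90, adjusted p = 0.0856).

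Among assembly and accessory factors of complexes II, III and ATP synthase 8 of 18 tested fell in 25xGFA1 after copper and none rose (median -0.34). They include STF2 at -1.23, CYC3, the haem lyase of cytochrome c, at -0.88, and INH1 and STF1, inhibitors of ATP hydrolysis by ATP synthase, at -1.15 and -0.82. Complex IV assembly and copper delivery gave 3 of 17 (SHY1 at -0.94, MSS51 at -0.39 and PET100 at -0.30). The TCA cycle gave 4 of 10 (CIT1, MDH1, LSC1 and LSC2, -0.56 to -0.34), while 4 other TCA genes had a positive log2 fold change. None of the 4 tested mitochondrially encoded subunits was called.

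In WT at 15-20 min against 0 min, where 12.5% of all genes were called, the calls in these lists were 2 of 10 for the TCA cycle, 1 of 9 for the isoform list, 1 of 17 for complex IV assembly, 2 of 18 for the other assembly factors and 0 of 4 Hap factors. CIT1 (0.90), ACO1 (0.78), CYC7 (1.45), STF2 (1.14), SDH6 (0.97) and COX14 (0.89) rose, and no gene of these lists fell. CIT1 (1.18), CYC7 (1.30) and STF2 (0.74) kept their calls on leaving out WT 0 min replicate 1, and SDH6, ACO1 and COX14 did not (adjusted p = 0.05, 0.0548 and 0.104). At 45-60 min against 25-30 min, where 10.4% of all genes were called, 7 genes of these lists were: 2 of 9, 1 of 17 and 4 of 18 in the isoform and assembly lists, with 0 of 10 for the TCA cycle. CYC7 fell by 2.76 log2 units (SE 0.495, adjusted p = 0.000437), to 3.98 to 17.4 CPM at 45-60 min against 7.36 to 92.0 CPM at 25-30 min. SDH8, STF2, SDH6, CBP3, COX14 and TIM11 fell too, with log2 fold changes of -1.69 to -0.75. In 25xGFA1 at 25-30 min against 15-20 min IDH2 (-1.55) and CBP3 (-1.62) fell and FUM1 (0.50) rose. In 25xGFA1, CYC7 had 3.70 to 11.2 CPM at 45-60 min, against 6.07 to 17.5 CPM at 25-30 min.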

How the data were processed

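The deposited table holds raw read counts per gene for 37 libraries, 6464 genes and 5 HTSeq summary entries. Build R64, STAR 2.7.10a, HTSeq 2.0.2, SAMtools 1.10 and FastQC 0.11.9 are named in the submitters' processing notes; the strand setting is not given in the sources used here. The authors' counts were not altered. Genes passing a minimum count of 10 (filterByExpr) were tested with edgeR 4.0.16 (limma 3.58.1, R 4.3.3) in 1 fit of 18 strain and time groups (TMM; 19 residual degrees of freedom), and p-values were Benjamini-Hochberg adjusted over 4995 genes (threshold 0.05) in each of 12 comparisons. CPM are TMM-scaled, so low counts carry wide counting error. The members and lists were chosen with earlier results of these data known. Library values are given for called members, at most 12; SDH4 and CYC1, added to cover their complexes, get the values of 1 comparison, and other members ranges. Pathway genes called are named, up to 4 a list by smallest p. CYC7 and COX26 were added after their values were seen. No replicate pair agreed within sampling noise (chi-square per degree of freedom 1.37 or more). Per the growth note, a replicate number marks a culture. The difference between replicates 2 and 1 correlated between times with a median of 0.09 in WT (-0.394 to 0.568) and 0.07 in 25xGFA1 (-0.171 to 0.208). Over the members after copper, WT replicate 2 lay above replicate 1 at 3 (QCR6, COX12) to 8 (QCR2, ATP17) of 8 times. In 25xGFA1 this held at 2 (ATP20) to 7 (COR1, CYT1, ATP2, ATP4 and ATP17) of 8 times. Alternatives covered DESeq2 1.42.0, its size factors, filters, baselines, the culture as a block, left-out libraries and a share covariate. The script was tested on simulated data.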

Additional observations from a re-analysis of the deposited data

How the results depend on the processing

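No call of a single member reversed, but member medians, which carry no test, changed sign in 8 cases and in 5 fits without 1 library. With the share covariate these were WT at 25-30 min (0.0584) and at 45-60 against 0 min, 25xGFA1 at 45-60 min against both earlier times, the strains at 0 min (-0.11) and the second difference in change; with 5 min, or 0 and 5 min (-0.11), as baseline, the strains; and in the 5 fits, WT at 25-30 min and at 45-60 against 0 min. All 30 members stayed lower in 25xGFA1 after copper under every alternative that tested 30, and 30 of 31 in 3 fits without 1 library. Unless members are named, counts are of all genes called; medians are member log2 fold changes. With DESeq2 size factors the strain difference in change from 0 min gave 0. Without a filter, 25xGFA1 at 15-20 against 0 min gave 1 and that difference in change 2. With a minimum count of 30, the 25xGFA1 median at 25-30 against 15-20 min was -0.30, 45-60 against 0 min gave 17, the strains at 0 min 1 member, and the difference in change 0. With the replicate block (culture), members called were 7 in WT at 15-20 min, 9 in WT at 45-60 against 25-30 min, 9 in 25xGFA1 at 25-30 min and 2 between strains at 0 min, and genes in 25xGFA1 were 15 (15-20 min), 487 (25-30 min), 79 (45-60 against 25-30 min) and 29 (45-60 against 0 min), with 432 between strains at 0 min; the block moved no other member count by over 1.5 times, and the replicate block gave ATP5 at 15-20 min in WT an adjusted p of 0.0714. With only the libraries compared, WT at 15-20 min gave 0 genes and 0 members, WT at 45-60 against 0 min 0, 25xGFA1 98, 1245 (11 members), 736 (4 members) and 135 in the same order, the strains at 0 min 3, the strains after copper 15 members, and the difference in change 0. With 5 min as baseline, WT at 15-20 min gave 3 genes, 0 members and a median of 0.25, WT at 45-60 min a median of -0.40, 25xGFA1 0 (15-20 min) and 14 (45-60 min), the strains 64 with a median of -0.30, and the difference in change 0 with -0.11. With 0 and 5 min together these were 273 genes and 1 member, 138, 29 (25xGFA1 at 45-60 min), 338 genes and 1 member, and 2. DESeq2 gave 14, 1 member at 25-30 min, 52 and 22 in 25xGFA1, and 2. With the share covariate, added after the data were seen, WT gave 1 member and a median of 0.38 at 15-20 min, 8 genes at 25-30 min, 0 members and -0.24 at 45-60 against 25-30 min, and 367 genes, 1 member and 0.24 at 45-60 against 0 min; 25xGFA1 gave 31 genes at 15-20 min, 1 and -0.0803 at 25-30 min, -0.0303 at 45-60 against 25-30 min, and 22 and 0.078 against 0 min; the strains after copper gave 16 members, and the differences in change 0 with -0.18 and a median of -0.0226. The cause of these shifts was not tested. Leaving out 1 library gave, for genes, members and median: WT at 15-20 min 299 to 1174, 1 to 13, 0.45 to 0.79; at 25-30 min 0 to 5, 0, -0.28 to 0.11; at 45-60 against 25-30 min 277 to 976, 0 to 10, -0.71 to -0.36; against 0 min 41 to 824, 0 to 5, -0.22 to 0.18; 25xGFA1 at 15-20 min 0 to 29, 0, 0.05 to 0.29; at 25-30 min 0 to 1063, 0 to 12, -0.82 to -0.32; at 45-60 against 25-30 min 0 to 304, 0, 0.12 to 0.38; against 0 min 1 to 37, 0, -0.23 to -0.09; strains at 0 min 40 to 882, 0 to 7, 0.02 to 0.37; after copper 1051 to 1713, 7 to 15, -0.40 to -0.28; differences in change 0 to 261, 0 to 3, -0.72 to -0.24, and 0, 0, 0.15 to 0.44. Depth left 4 members untested, and single groups hold 2 libraries, so small differences were not detectable.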
